A study of Homo sapiens with 8 samples.

Results

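Sulfatases remove sulfate groups from sugars, lipids and steroids, and 9 genes of this system were examined in hCMEC/D3. This is a human line of endothelial cells from brain microvessels, widely grown as a stand-in for the blood-brain barrier. The genes were ARSI with 7 further sulfatases (ARSA, ARSB, ARSG, ARSJ, ARSK, SGSH and GALNS) and SUMF1, and they were found by their symbols among the 23346 genes listed. ARSI was chosen by its high counts in replicates 2 and 8, so its values in those libraries are a description and carry no test. The other 8 genes were taken as relatives or as the activating enzyme. Levels are given as CPM, counts scaled by library size. All 9 were detected, meaning 1 CPM or more in all 8 libraries.

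The data are polyadenylated RNA sequencing of 8 replicate samples of the line. All belong to 1 group, with no treatment, time point or second genotype in the labels. The line is clonal and carries telomerase and a viral large T antigen, so all libraries share these alterations. The labels did not say whether the replicates were separate cultures, so p-values measure only the spread between these samples, which may be technical.

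Sulfatases share a catalytic residue that is not among the encoded amino acids. A cysteine in a conserved stretch of the protein is turned into formylglycine inside the endoplasmic reticulum, and the enzyme that does this is the product of SUMF1. Without that step sulfatases are made but stay inactive, as in multiple sulfatase deficiency. ARSA splits sulfatide, a lipid of myelin, and its loss causes metachromatic leukodystrophy. ARSB, GALNS, SGSH, ARSG and ARSK are lysosomal enzymes that each take a different sulfate group from glycosaminoglycans. ARSI and ARSJ are close relatives of ARSB whose natural substrates are less well known.

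The coding bases of the formylglycine site of ARSI show what SUMF1 acts on. They are given here because this site ties ARSI to its relatives and to the activating enzyme. The line holds 33 bases of the coding strand, 5′ to 3′, read from the GENCODE 44 transcript lifted to GRCh37, and the codon of the modified cysteine is in capitals.
ARSI: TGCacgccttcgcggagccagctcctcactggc
The stretch lies in exon 1 of 2 on the minus strand at chr5:149681628-149681660 and starts at codon 93 of the coding sequence.

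Over whole coding sequences ARSI was nearest to ARSJ, with 64.9% of aligned bases identical, against 57.8% (ARSK) to 62.4% (SGSH) for the other 6. The longest run of identical bases between the ARSI and ARSJ transcripts was 22 nt, and with the other 6 sulfatases it was at most 14 nt. ARSI overlapped no other listed gene. Of the 9 genes only ARSG overlapped another, SLC16A6, and whether reads were assigned by strand is not given.

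Replicates 2 and 8, and to a smaller degree replicate 7, stood apart from the other 5 libraries in how level varied with transcript length. The slope of a library's deviations from each gene's mean was -0.24, -0.11 and -0.35 log2 per doubling of length in replicates 2, 7 and 8, and 0.09 to 0.16 in the others. Deposited counts summed to between 69388544 and 90205244 per library, and every count was even. All 5 endothelial markers searched for (PECAM1, CDH5, VWF, KDR and ENG) were detected, and their summed level was 1744 to 3466 CPM, highest in replicates 2 (3303) and 8 (3466). The markers did not all follow the sum: 3 (PECAM1, VWF and ENG) had both libraries above the other 6. KDR had both below (114 and 118 CPM against 133 to 218). CDH5 in replicate 8 (635 CPM) lay within the range of the others (493 to 666). Summed markers of other cell types were low in every library. Leukocyte markers summed to 1.87 to 2.58 CPM, epithelial markers to 0.615 to 1.73, mural markers to 0.237 to 1.07, neuron markers to 0.708 to 1.32 and astrocyte markers to 0.731 to 0.950, with AQP4 at 0 in all 8. The part of the endothelial level in the results that follow was not tested.

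ARSI (chromosome 5, 149675909 to 149682525, minus strand, 2 exons) had 2.29, 80.4, 2.04, 2.64, 2.62, 1.93, 2.85 and 50.7 CPM in replicates 1 to 8. The deposited counts behind these values were 156, 7254, 156, 192, 202, 138, 234 and 4288. Replicates 2 and 8 thus stood apart, and the other 6 libraries lay within a narrow range. Replicate 2 was 28.2-fold and replicate 8 was 17.8-fold above the highest of the other 6, which was replicate 7. In bulk RNA, a larger number of cells with ARSI and more ARSI RNA per cell cannot be told apart.

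The authors' conditional quantile normalised (CQN) values, which are on a log2 scale and adjusted for the length and GC content of genes, were 6.78 in replicate 2 and 6.01 in replicate 8 for ARSI. In the other 6 libraries they ran from 1.87 to 2.36. The gap between the lower of replicates 2 and 8 and the highest of the others was 4.11 on the log2(CPM + 0.1) scale and 3.65 on the CQN scale.

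**Figure D1:**
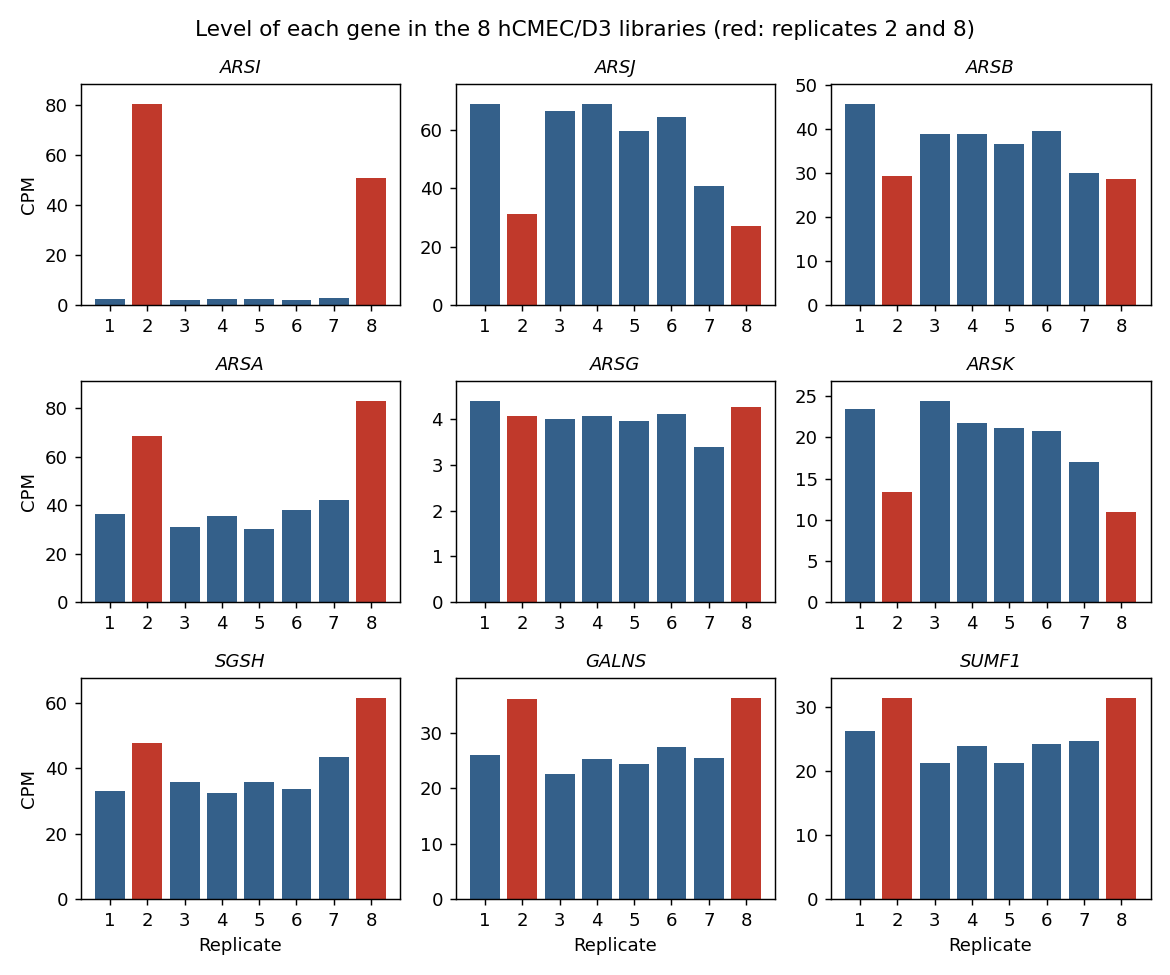
Level in CPM (vertical axes, each from 0) of the 9 genes in replicates 1 to 8 (horizontal axes), 1 bar per library, with replicates 2 and 8 in red. ARSI stands at 80.4 and 50.7 CPM in those libraries and at 1.93 to 2.85 CPM elsewhere, whereas no relative has a gap of that size.

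Replicates 2 and 8 also differed from the rest in many other genes, which sets the background for the relatives. Both lay above the other 6 libraries in 4042 of 11980 detected genes (33.7%) and both lay below them in 3575 (29.8%). A gap of at least 2-fold above was much rarer, with 30 genes (0.25%), and at least 4-fold above was reached by 1 gene (0.00835%), which was ARSI itself. The next largest gap among detected genes was 3.10-fold, for SRPX. Genes below 1 CPM in any library are outside these counts, and some of them had larger gaps than ARSI. Because ARSI was chosen for this pattern, its place at the end of the distribution is a description.

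**Figure D2:**
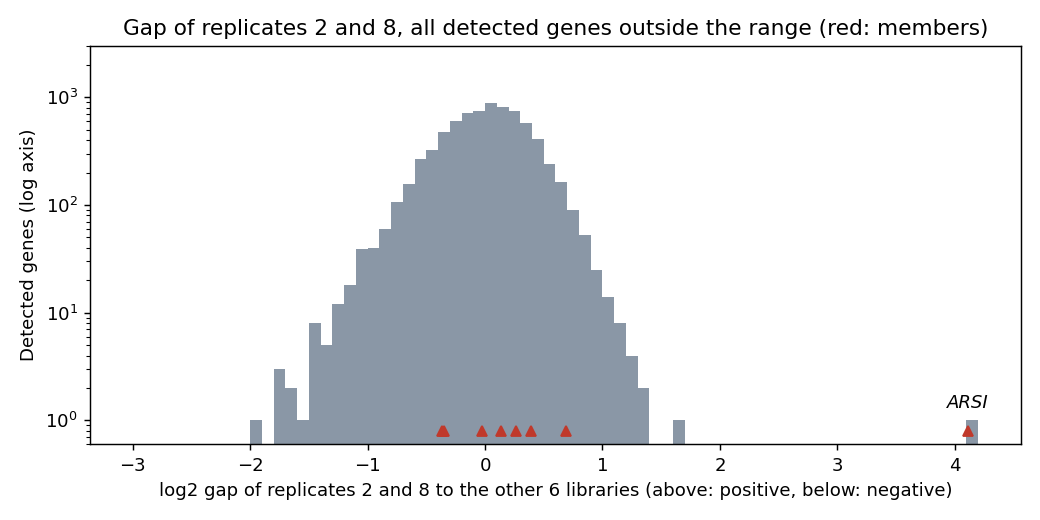
Number of detected genes (vertical axis, log scale) by the log2 gap between replicates 2 and 8 and the range of the other 6 libraries (horizontal axis), for genes with both libraries outside that range. Red triangles mark ARSI and the 7 relatives outside the range: ARSI lies at 4.11 and its relatives between -0.37 and 0.69.

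Of the 8 relatives, 4 had replicates 2 and 8 both above the other 6 libraries (ARSA, SGSH, GALNS and SUMF1), 3 had both below (ARSB, ARSJ and ARSK), and ARSG had neither. Over all detected genes 33.7% had both above and 29.8% both below, and a difference of the 8 relatives from these shares was not tested. The largest gap above among the relatives was 1.62-fold, for ARSA. The relatives therefore did not move one way with ARSI.

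Whether a relative varied between the 8 libraries more than genes of like abundance was tested in edgeR by the goodness of fit to the trended dispersion. P-values were adjusted by Benjamini-Hochberg over all detected genes. The test called 558 of 11980 genes at an adjusted p under 0.05 (4.66%). It called 0 of the 8 relatives. At an unadjusted p under 0.05 there were 2, ARSA and ARSJ, against 1572 of all 11980 genes. With the DESeq2 fitted trend the same 2 were called, against 2811 of the 11980. Without replicates 2, 7 and 8 together, edgeR called 297 genes and 0 relatives.

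ARSA (chromosome 22, 51061182 to 51066601, minus strand, 8 exons), the sulfatide enzyme, was the relative nearest to the pattern of ARSI. It had 36.2, 68.3, 30.9, 35.4, 29.96, 37.9, 42.2 and 83.0 CPM in replicates 1 to 8. Replicate 8 was highest, then replicate 2, and both lay above the range of the other 6. The edgeR variation test gave an adjusted p of 0.115 (unadjusted p = 0.00807). With each library's trend on length and GC content removed the adjusted p was 0.00401, and with the DESeq2 fitted trend it was 1.26e-04, so ARSA was called under these settings and not in the edgeR test on the counts as deposited.

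The gap of ARSA was also present on the scales that correct for length and GC content. It was 0.69 on log2(CPM + 0.1), 0.49 on the CQN scale and 0.53 with the length and GC trend removed. A gap at least as large as that of ARSA was found in 1.69%, 1.32% and 1.04% of the genes on those 3 scales.

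ARSJ (chromosome 4, 114821440 to 114900878, minus strand, 2 exons), the relative nearest to ARSI in coding sequence, showed the opposite order. It had 69.0, 31.4, 66.6, 68.8, 59.8, 64.6, 40.7 and 27.0 CPM in replicates 1 to 8. Replicates 8 and 2 were lowest and replicate 7 came next, with the other 5 libraries well above. The edgeR adjusted p was 0.199 (unadjusted p = 0.0183), and it was 6.20e-04 with the DESeq2 fitted trend. On the CQN scale replicates 2 and 8 stayed lowest, at 5.54 and 5.41 against 5.72 to 6.17. A gap at least as far below as that of ARSJ was found in 9.84% of genes on CPM, 9.38% on CQN values and 7.17% with the length and GC trend removed.

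The ratio of ARSI to ARSJ in RPKM (CPM per kb of transcript) followed from both. It was 3.78 in replicate 2 and 2.77 in replicate 8, against 0.0442 to 0.104 in the other libraries. ARSJ was thus the more abundant of the pair in 6 libraries and ARSI in the other 2.

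ARSK (chromosome 5, 94890825 to 94940806, plus strand, 8 exons), which acts on sulfated glucuronic acid, had 23.4, 13.3, 24.4, 21.7, 21.2, 20.7, 17.0 and 10.9 CPM in replicates 1 to 8. Replicates 8, 2 and 7 were lowest, in that order, and replicates 2 and 8 were again lowest on the CQN scale (4.52 and 4.34 against 4.67 to 4.89). The edgeR adjusted p for variation was 1.0.

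ARSB (chromosome 5, 78073037 to 78282357, minus strand, 8 exons), which works on dermatan and chondroitin sulfate, had 45.7, 29.2, 38.9, 38.9, 36.6, 39.4, 29.9 and 28.7 CPM. Replicates 2 and 8 were lowest but replicate 7 was almost level with them, with a gap of 1.02-fold. On the CQN scale the direction turned: replicate 8 was highest at 5.35 and replicate 2, at 5.22, lay inside the range of the others.

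ARSG (chromosome 17, 66255323 to 66417000, plus strand, 12 exons), which acts on heparan sulfate, was the lowest and most even relative. It had 4.40, 4.08, 4.01, 4.08, 3.97, 4.12, 3.39 and 4.26 CPM in replicates 1 to 8, a coefficient of variation of 7.38%. Replicates 2 and 8 lay inside the range of the other 6.

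SGSH (chromosome 17, 78183079 to 78194199, minus strand, 8 exons), the heparan N-sulfatase, had 32.96, 47.8, 35.8, 32.5, 35.9, 33.8, 43.4 and 61.5 CPM in replicates 1 to 8. Replicates 8, 2 and 7 were highest, in that order. On the CQN scale its 8 values spanned 6.12 to 6.37 and replicate 2 was lowest. The CPM order of SGSH therefore did not hold on the corrected scale.

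GALNS (chromosome 16, 88880142 to 88923374, minus strand, 14 exons), which works on keratan and chondroitin sulfate, had 25.9, 36.1, 22.5, 25.3, 24.3, 27.4, 25.5 and 36.3 CPM in replicates 1 to 8. Replicates 8 and 2 were highest and did not overlap with the others. On the CQN scale both libraries fell inside the range of the others, at 5.79 and 5.68 against 5.60 to 5.96.

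SUMF1 (chromosome 3, 4402829 to 4508966, minus strand, 9 exons), which activates all of these enzymes, had 26.3, 31.5, 21.3, 23.9, 21.3, 24.2, 24.6 and 31.4 CPM in replicates 1 to 8. Replicates 2 and 8 were highest, each 1.20-fold above the next library, which was replicate 1. The edgeR adjusted p for variation was 1.0. On the CQN scale SUMF1 was 5.86 and 5.81 in those libraries and up to 5.80 elsewhere, a gap of 0.01. With the length and GC trend removed, its deviation from its own 8-library median was 0.08 in replicate 2 and 0.00 in replicate 8. The activating enzyme was therefore nearly level across libraries that differed 17.8-fold or more in ARSI.

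Length and GC content moved with these values. A trend was fitted across detected genes to the deviations from each gene's mean. At the length and GC content of SGSH it was 0.38 in replicate 2 and 0.47 in replicate 8, and at those of ARSJ it was -0.24 and -0.34. Replicate 7 came next after replicates 2 and 8 from above for ARSA and SGSH and from below for ARSB, ARSJ and ARSK. That order was found from above in 23.5% and from below in 21.5% of all detected genes. On CQN values 2 relatives had both libraries above (ARSA and, by 0.01, SUMF1) and 2 below (ARSJ and ARSK), against 26.5% and 22.2% of genes. With the length and GC trend removed, 1 was above (ARSA) and 2 were below (ARSJ and ARSK), against 25.1% and 23.5%. At the length and GC content of ARSI the fitted trend was 0.33 in replicate 2 and 0.40 in replicate 8. The deviations of ARSI from its own median were 4.88 and 4.22.

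**Figure D3:**
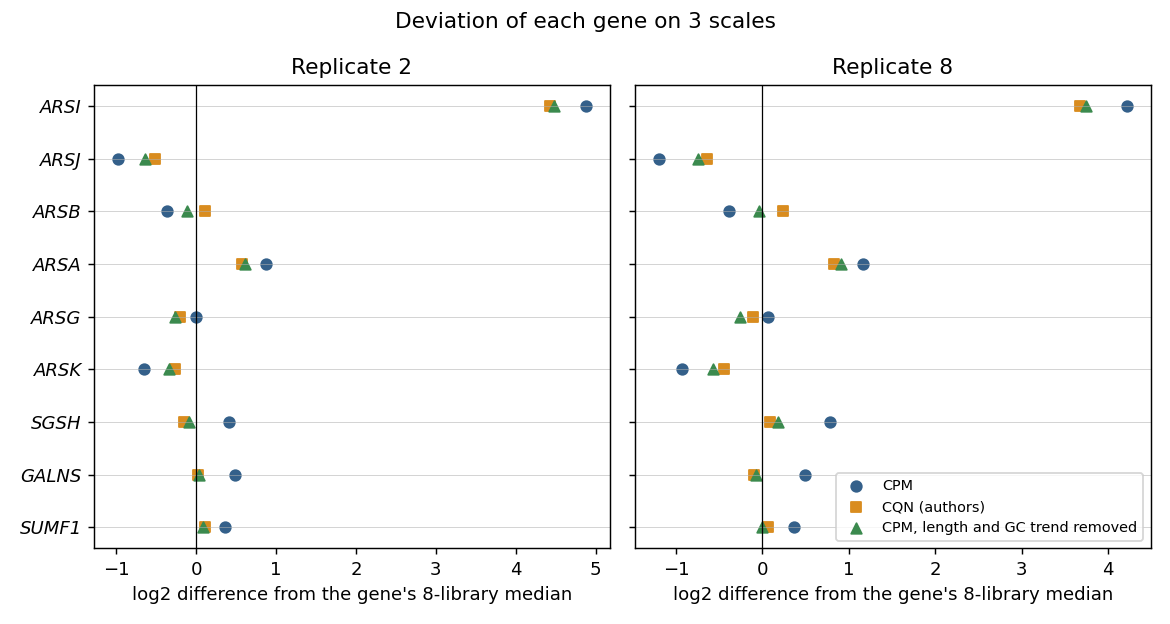
Deviation of each of the 9 genes from its own 8-library median (horizontal axes, log2) in replicate 2 (left) and replicate 8 (right), as CPM (circles), as CQN values (squares) and as CPM with the length and GC trend removed (triangles). ARSI stays between 3.67 and 4.88 on every scale, ARSA stays above 0, ARSJ and ARSK stay below 0, and GALNS and SUMF1 move close to 0 once length and GC content are corrected.

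Levels of different genes were compared as RPKM with the length of the canonical transcript. SGSH had the highest mean of the 8 relatives at 15.0 ± 3.73 RPKM (SD, n = 8), followed by SUMF1 (11.9 ± 1.85), GALNS (11.9 ± 2.26), ARSJ (11.6 ± 3.82), ARSA (10.6 ± 4.52), ARSB (7.40 ± 1.25), ARSK (5.67 ± 1.44) and ARSG (1.58 ± 0.117). All 28 pairs were compared within libraries by an exact permutation test that flips signs (two-sided, p adjusted over the 28), and 20 differed. Among neighbours in this order, SGSH exceeded SUMF1 by 0.31 ± 0.21 log2 in 7 of 8 libraries (exact adjusted p = 0.0219). ARSB exceeded ARSK by 0.41 ± 0.22 in 8 of 8 libraries (exact adjusted p = 0.0129), and ARSK exceeded ARSG by 1.74 ± 0.42 (exact adjusted p = 0.0129). The exact p of the last 2 pairs, 0.00781, is the smallest that 8 libraries allow. The other 4 neighbouring pairs (SUMF1 and GALNS, GALNS and ARSJ, ARSJ and ARSA, ARSA and ARSB) did not differ beyond their spread. The lowest p among them was that of ARSA and ARSB (log2 ratio 0.43 ± 0.74, exact adjusted p = 0.238). On CQN values that pair was called, with a difference of 0.66 (exact adjusted p = 0.0104).

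The place of some members changed between libraries. ARSI had the lowest RPKM of the 9 genes in replicates 1, 3, 4, 5, 6 and 7 (0.621 to 0.915), the highest in replicate 2 (25.8) and the third highest in replicate 8 (16.3). ARSJ held rank 1 or 2 in replicates 1, 3, 4, 5 and 6 and ranks 6, 5 and 7 in replicates 2, 7 and 8. The order of the means thus rested partly on replicates 2, 7 and 8. Without them the mean log2 ratios of SGSH, SUMF1 and GALNS over ARSJ were -0.17, -0.39 and -0.41. That of ARSA over ARSB was then -0.05. Leaving out length reversed 8 of the 28 pair orders, counting pairs called different with or without length. These were mostly orders of SUMF1 and GALNS, which have the shortest transcripts of the 9 (2147 and 2344 nt). SGSH over ARSJ also changed sign, from 0.41 to -0.35 log2, but was called neither with nor without length.

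A further 8 sulfatases were examined, of which 6 were detected. SULF1, an extracellular enzyme that edits heparan sulfate at the cell surface, was the highest of them at 29.1 ± 10.6 RPKM (SD, n = 8), and its relative SULF2 had 7.75 ± 1.43. IDS, the iduronate sulfatase, had 10.7 ± 2.31 RPKM and STS, the steroid sulfatase, had 5.41 ± 1.48. ARSD and ARSE, from a cluster on chromosome X, had 2.26 ± 0.261 and 0.677 ± 0.170 RPKM. ARSF and ARSH of the same cluster were not detected, with at most 0.112 and 0.0244 CPM in any library. Members of that cluster are close copies, and how shared reads were counted was not stated.

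None of the 6 detected further sulfatases passed the edgeR variation test (1 at an unadjusted p under 0.05, 2 with the DESeq2 fitted trend). Among all 11980 detected genes the last 2 counts were 1572 and 2811. ARSD, ARSE and SULF2 had replicates 2 and 8 both above the other 6, and STS, IDS and SULF1 had both below, all by less than 2-fold. Over all detected genes, 33.7% had both above and 29.8% both below on CPM. On CQN values 3 stayed above (ARSD, ARSE and SULF2) and 1 below (STS, by 0.02), against 26.5% and 22.2% of genes. IDS (6.37 and 6.30 against 6.27 to 6.36) and SULF1 (7.25 and 7.13 against 7.02 to 7.78) were then no longer below.

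Summed over these 8 and the 8 sulfatases described above, RPKM ran from 101 to 142 in the 6 libraries with low ARSI and stood at 138 and 131 in replicates 2 and 8. ARSI made up 18.7% of that sum in replicate 2 and 12.4% in replicate 8, against 0.462% to 0.903% elsewhere. The share of ARSA was 11.5% and 14.7% against 5.94% to 9.69%, and that of ARSJ was 4.95% and 4.48% against 8.72% to 12.2%. SULF1 held 14.5% and 13.1% against 20.2% to 32.7%. These shares rest on RPKM, which does not remove each library's trend on length and GC content. On CQN values SULF1 lay inside the range of the others in both libraries. The summed level was 9.41 and 8.97 times that of SUMF1 in replicates 2 and 8, with replicate 7 at 8.83 and the other 5 libraries at 11.3 to 12.

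**Figure D4:**
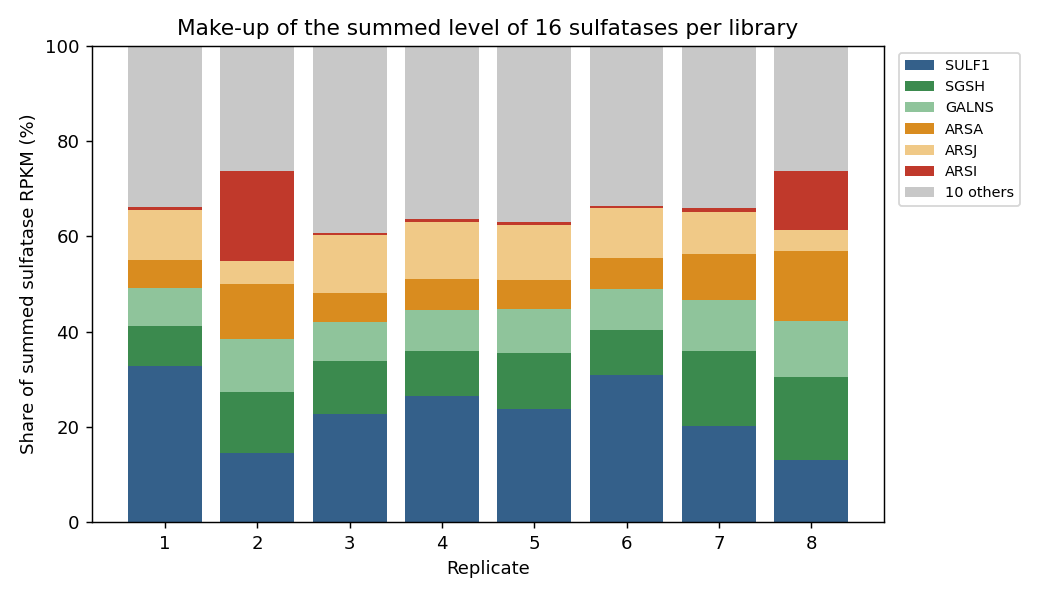
Share of the summed RPKM of 16 sulfatases (vertical axis, percent) held by 6 named genes and by the other 10 together, in replicates 1 to 8 (horizontal axis). ARSI (red) takes 18.7% in replicate 2 and 12.4% in replicate 8 and is a thin line elsewhere.

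Genes that serve sulfatases were described in 6 further lists. The first holds 5 partners of the formylglycine enzyme in the secretory pathway: SUMF2, its inactive paralogue, had 226 and 248 CPM in replicates 2 and 8 against 129 to 181 in the others. ERP44, which holds the enzyme in the early secretory pathway, and the disulfide isomerases P4HB (406 ± 90.5 RPKM, the highest of the list) and PDIA3 also had both libraries above the rest, by at most 1.27-fold, and the cargo receptor LMAN1 had 135 and 120 CPM against 165 to 255. On CPM, 4 of the 5 thus had both libraries above and 1 had both below, against 33.7% and 29.8% of all detected genes. On CQN values 3 of the 5 had both libraries above (SUMF2, ERP44 and PDIA3) and 0 had both below, against 26.5% and 22.2%. The gaps of these 3 were 0.33, 0.12 and 0.21 on log2(CPM + 0.1), and 0.18, 0.53 and 0.32 on CQN values. P4HB was then 10.74 and 10.76 against 10.65 to 10.75, and LMAN1 was 7.66 and 7.62 against 7.56 to 7.97. The median deviation of this list was 0.34 and 0.54 (log2) in replicates 2 and 8, against 0.03 and 0.03 over all detected genes. None of the 5 passed the edgeR variation test (0 at an unadjusted p under 0.05, 1 with the DESeq2 fitted trend). Among all 11980 detected genes the last 2 counts were 1572 and 2811.

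In the list of 14 genes of glycosaminoglycan and sulfatide breakdown, PSAP, the precursor of the saposins that present sulfatide to ARSA, led with 492 ± 76.3 RPKM (SD, n = 8), and 7 genes had replicates 2 and 8 both above and 1 both below. In the list of 17 core lysosomal genes, NPC2, a sterol carrier, led with 266 ± 76.1 RPKM, and 10 had both above and 3 both below. Over all detected genes the shares were 33.7% above and 29.8% below. On CQN values the counts were 5 above and 3 below in the list of 14 and 4 above and 2 below in the list of 17, against 26.5% and 22.2% of all detected genes. The median deviations of the core lysosomal list were 0.17 and 0.40 on CPM and -0.01 and 0.05 on CQN values. None of the 31 genes passed the edgeR variation test (2 at an unadjusted p under 0.05, 6 with the DESeq2 fitted trend). Among all 11980 detected genes the last 2 counts were 1572 and 2811.

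Of 7 genes that sort lysosomal enzymes, 2 had replicates 2 and 8 both above (GNPTG and NAGPA, of the mannose phosphate tagging step) and 4 both below (M6PR, IGF2R, GNPTAB and SCARB2), against 33.7% and 29.8% of all detected genes. On CQN values the same 2 were above and 3 below, against 26.5% and 22.2%, and SCARB2 lay inside the range of the others. SCARB2, a sorting receptor and lysosomal membrane protein, was the highest of the list by RPKM at 66.6 ± 13.3 (SD, n = 8), and M6PR had no length. Of 4 regulators, 2 had replicates 2 and 8 both above (TFEB and TFE3) and 1 both below (MITF), against 33.7% and 29.8% of all detected genes. TFEB, a transcription factor of lysosomal genes, had 11.99 and 16.8 CPM against 6.47 to 8.45. MITF went the other way, with 4.70 and 4.23 CPM against at least 6.94 CPM in the others. On CQN values TFEB and ZKSCAN3 were above, TFE3 was below and MITF lay inside the range of the others. TFE3 was the most abundant regulator at 20.6 ± 1.56 RPKM. Neither list had a gene past the edgeR variation test (2 and 1 at an unadjusted p under 0.05, 4 and 2 with the DESeq2 fitted trend). Among all 11980 detected genes, 1572 had an unadjusted p under 0.05 and 2811 were called with the DESeq2 fitted trend.

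In the list of 7 genes of sulfate supply, PAPSS2, which makes the sulfate donor, was highest at 44.2 ± 5.36 RPKM (SD, n = 8). SLC26A2, a sulfate carrier of the cell membrane, was the 1 gene of these lists that passed the test. It had 84.3 and 86.6 CPM in replicates 2 and 8, 157 CPM in replicate 7 and 218 to 241 CPM in the others (edgeR adjusted p = 0.0423). The adjusted p was 0.852 with the length and GC trend removed, 0.0553 without a filter on low counts, and between 0.0523 and 0.261 without any 1 library, so the call was lost under each of these. It was kept with DESeq2 size factors (0.0403), total counts (0.032), halved counts (0.0425), a filter of 1 CPM in 2 libraries (0.0404) and the DESeq2 fitted trend (5.48e-06), and lost without replicates 2, 7 and 8 together (1.0). Over the 7 lists, 1 of 60 detected genes was called, against 4.66% of all detected genes.

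**Figure D5:**
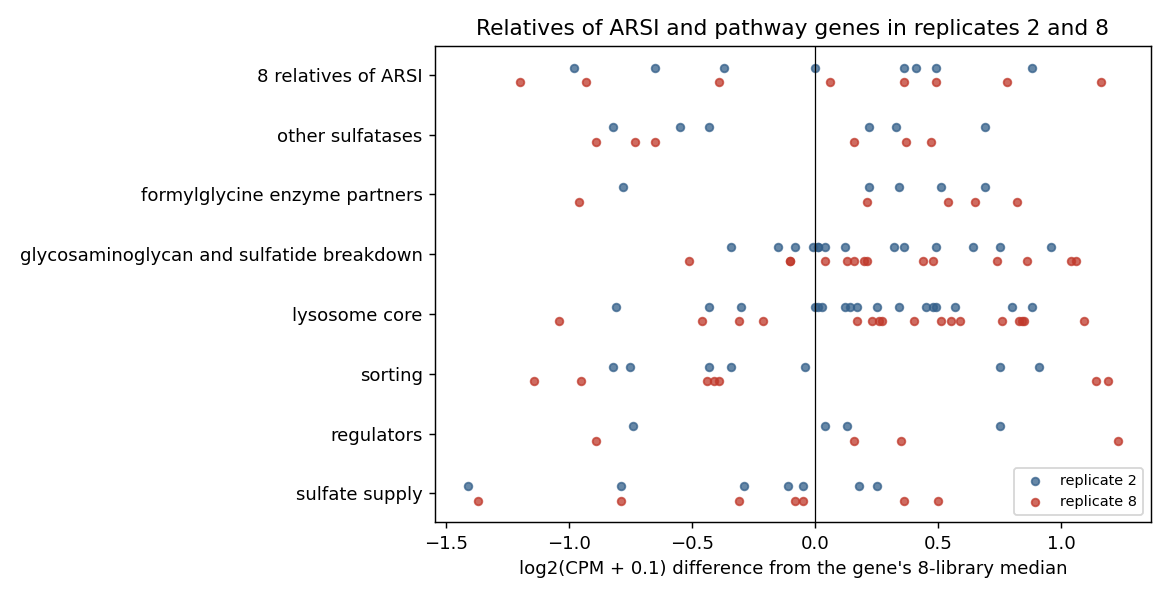
Deviation of each detected gene from its 8-library median on log2(CPM + 0.1) (horizontal axis) in replicate 2 (blue) and replicate 8 (red), for the 8 relatives of ARSI and the 7 lists (vertical axis), 1 point per gene and library. Points of most lists lie on both sides of 0, and none nears the 4.88 and 4.22 of ARSI.

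The genes on either side of ARSI did not share its pattern. CAMK2A, whose listed end lies 6505 bp from ARSI, had at most 0.0786 CPM in any library, and TCOF1, 54676 bp away on the other side, had 181 and 173 CPM in replicates 2 and 8 within a range of 163 to 211 CPM. Of 5 genes listed on each side, 6 were detected, and none had replicates 2 and 8 apart from the others by as much as 2-fold.

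The genes whose profiles were most like that of ARSI were ranked by the root mean square difference of centred log2(CPM + 1) values over the 8 libraries. The 5 nearest were SRPX (1.14), HLA-H (1.15), YPEL3 (1.15), MXD3 (1.20) and ODF3B (1.20), and the median over detected genes was 1.84. SRPX, a sushi repeat protein, had 9.84 and 8.99 CPM in replicates 2 and 8 and 1.74 to 2.83 CPM elsewhere. HLA-H is a pseudogene close in sequence to other HLA genes, and YPEL3 and MXD3 overlap other listed genes, so their counts are uncertain. Among the relatives the difference from ARSI ran from 1.41 for ARSA to 2.32 for ARSJ. On CQN values SRPX was again the nearest and was the 1 gene of the 5 found in both lists. Of the 5, 3 were found without replicate 1, 2 without replicate 2 and 1 without replicate 8.

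Promoter sequences were available in a RefSeq table (GRCh38.p14) for 7 of the 9 genes, and not for ARSA and SGSH. They were searched, on both strands, for CACGTG, the core of the element that TFEB and its relatives bind. The window ran from 250 bases before to 50 after the start. CACGTG was in the promoters of SUMF1, ARSK and GALNS and in 1 of 2 promoters of ARSB, and in 7.26% of all 35116 promoters. No CACGTG was in the ARSI, ARSJ or ARSG windows. The 250 bases before the start are shown for ARSI (chr5:150302906-150303155, minus strand), the gene with the high values in replicates 2 and 8, and for GALNS (chr16:88856948-88857197, minus strand), the one with the most matches, with CACGTG in capitals.
ARSI: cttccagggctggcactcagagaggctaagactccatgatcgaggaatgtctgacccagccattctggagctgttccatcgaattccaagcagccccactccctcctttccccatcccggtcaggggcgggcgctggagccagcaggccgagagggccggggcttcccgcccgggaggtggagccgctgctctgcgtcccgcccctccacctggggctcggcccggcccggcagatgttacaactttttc
GALNS: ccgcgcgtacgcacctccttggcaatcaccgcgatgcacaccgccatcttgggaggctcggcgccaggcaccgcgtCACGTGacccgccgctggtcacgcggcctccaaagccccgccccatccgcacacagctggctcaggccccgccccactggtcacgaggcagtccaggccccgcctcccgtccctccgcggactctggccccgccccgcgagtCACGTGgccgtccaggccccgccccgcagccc
The GALNS stretch holds CACGTG 2 times and the ARSI stretch has none. The members with the motif included genes higher (SUMF1, GALNS) and lower (ARSB, ARSK) in replicates 2 and 8 on CPM. On CQN values ARSK stayed below and SUMF1 above by 0.01, and GALNS and ARSB no longer had both libraries outside the range. With the length and GC trend removed only ARSK kept its place. A match of letters does not show binding.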

How the data were processed

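Polyadenylated RNA libraries of 8 hCMEC/D3 samples were sequenced. The submitters' processing notes name CASAVA 1.9, TopHat2 2.0.6, HTSeq and the hg19 build, without their order or settings. The authors deposited whole-number counts per gene and CQN-normalised log2 values, per the file headers, with the log2 scale judged from the values. All 186768 counts were even, and whether read pairs count as 2, and whether strand was used, is not given in the sources used here. All 16 value columns were matched to samples by title, and 0 were left over.

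CPM used TMM-scaled library sizes (edgeR 4.0.16, R 4.3.3). The variation test was edgeR's goodness-of-fit test on an intercept-only model, at an adjusted p under 0.05, and was tested on simulated counts. With 1 group there was no comparison of groups. Fold gaps were computed on log2(CPM + 0.1). Transcript length and GC content came from GENCODE 44 canonical transcripts on GRCh37 (96.8% of detected genes), and each library's trend on both was fitted with splines. Listed starts were 1 less than the annotation for 4993 genes and equal for 680, so they were read as counting from 0 and are printed 1-based. DESeq2 1.42.0 gave an alternative trend and size factors.

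The members and lists were chosen with earlier results of these data known. Some items are not reported here. Named genes were all members, the further sulfatases, the highest gene of each list with those past the test or 2-fold apart, the 5 genes most like ARSI and its nearest neighbours. List genes outside this rule (SUMF2, LMAN1, the sorting genes, TFEB and others) were chosen after their values were seen. Counting error is small at this depth, where totals exceed 69388544 counts, except for genes near 0, where a count of 0 allows up to 0.0665 to 0.088 CPM (3 read pairs). These limits cover counting error only.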

Additional observations from a re-analysis of the deposited data

Results flagged for a closer look

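ARSG was lowest in replicate 7, at 3.39 CPM, and the gap to the next library was 0.57 of its whole range. It was picked up because this share was above the 95% critical value of Dixon's test for 8 samples. Chance flags about 1 in 20 groups, and 9 genes were examined.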

How the results depend on the processing

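The variation test called between 381 and 491 genes when 1 library was left out, 2811 with the DESeq2 fitted trend, 297 with replicates 2, 7 and 8 left out together (chosen after seeing the data) and 555 to 769 under the other settings, against 558. Of the 8 relatives it called 0 without any 1 library, 2 with the DESeq2 fitted trend (ARSA and ARSJ) and 1 with the length and GC trend removed (ARSA). The count of relatives with replicates 2 and 8 both above was 2 on CQN values and 1 with that trend removed, against 4. On CQN values deviations reversed for ARSB (0.11 in replicate 2 and 0.24 in replicate 8), SGSH in replicate 2 (-0.15) and GALNS in replicate 8 (-0.10). With the trend removed, chosen after seeing the data, SGSH in replicate 2 (-0.09) and GALNS in replicate 8 (-0.07) reversed. Pseudocount and scaling moved no deviation by more than its spread. Without length, 8 level ratios reversed among pairs called with or without length. They were SGSH over ARSA (-0.11), SUMF1 over GALNS (-0.12), ARSJ (-0.99), ARSA (-0.75) and ARSB (-0.49), and GALNS over ARSJ (-0.87), ARSA (-0.63) and ARSB (-0.37). SGSH over ARSJ (-0.35) also changed sign but was called in neither form. On CQN values SUMF1 over GALNS (-0.07), ARSJ (-0.19) and ARSA (-0.11) changed sign. So did GALNS over ARSJ (-0.12) and ARSA (-0.04), and no pair that changed sign on CQN values was called on RPKM or CQN. Called on CQN values but not on RPKM were SGSH over ARSJ (0.37) and ARSA over ARSB (0.66), each with an exact adjusted p of 0.0104. In all, 22 pairs were called on CQN values, against 20 on RPKM. Of the 5 genes most like ARSI, 1 was shared on CQN values and between 1 and 5 without 1 library, with 3 without replicate 1, 2 without replicate 2 and 1 without replicate 8. No paired analysis was possible because all samples belong to 1 group.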

Other observations

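Genes below 1 CPM in the other 6 libraries were outside the detected set, so genes of at least 1 CPM in both replicate 2 and replicate 8 were listed without that filter, a choice made after seeing the data. Of 12322 such genes, 7 lay at least 4-fold above the other 6 libraries: ARSI and 6 that were not detected elsewhere at 1 CPM. C5orf38 (chromosome 5, 2752262 to 2755511) had levels of 13.2 and 5.68 CPM in those libraries, from 1192 and 480 counts. It had 0 counts in the other 6 libraries, where a count of 0 allows up to 0.0731 to 0.088 CPM. ANKRD30BL had 1.42 and 1.02 CPM and was also at 0 counts in the other 6. MT1H, a metallothionein of a family of near copies, had 3.92 and 4.02 CPM against 0.0244 to 0.104. MIR663A and LOC284801 overlap each other, and with MIR3687 they had 1.11 to 2.99 CPM in replicates 2 and 8 and at most 0.419 CPM elsewhere. ARSI was thus by far the most abundant gene of the 7, and C5orf38 was the next. On log2(CPM + 0.1) the gaps of C5orf38 (57.8-fold) and MT1H (19.7-fold) were larger than that of ARSI (17.2-fold). For genes near 0 the size of the gap depends on the 0.1 added.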
